A study of Rattus norvegicus with 30 samples.

Results

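Neuropeptide Y, the peptide that sympathetic nerves release together with noradrenaline, was followed with 6 further genes of the sympathetic neuron in rat left ventricle. The 7 genes were Npy, Th, Dbh, Ddc, Slc6a2, Slc18a2 and Npy1r, out of 26785 genes on the array (18333 tested). They were found by matching each probe's transcript accession to a rat gene symbol, and the brightest probe stood for each gene. The set was chosen by measured values of the same arrays: the fall of Npy in perfused hearts was known when the genes were put together, so the perfusion differences of these 7 genes are given as a description, with no test.

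The hearts came from male Sprague Dawley rats aged 16 to 18 weeks, kept on chow or on a sucrose-rich diet, the latter lasting 8 to 10 weeks and used to bring on insulin resistance. All hearts were taken under chloral hydrate anaesthesia and cooled in ice-cold Krebs-Henseleit buffer. Those of the non-perfused groups were frozen at once. The other hearts first beat outside the body for 60 min as normoxic working hearts, in buffer with calcium, propionate (2 mmol/L), acetoacetate (1 mmol/L) and hydroxybutyrate (10 mmol/L). That buffer also held either 25 mmol/L glucose or, as the osmotic control without glucose, 25 mmol/L mannitol. The 6 groups (chow or sucrose, each non-perfused, mannitol or glucose) had 5 one-colour arrays each, 1 array per heart, and the labels call them biological replicates. Precision is limited by this number of arrays. The share of spots well above background ran from 53.7% to 77.8%.

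Sympathetic neurons make noradrenaline from tyrosine in a short chain of enzymes, pack it into vesicles and take it back up after release. Neuropeptide Y is made in the cell body, carried along the axon in large dense-core vesicles and set free at high firing rates, and in the heart it narrows coronary vessels and damps vagal transmission. The cell bodies of cardiac sympathetic neurons lie outside the ventricle, in the stellate ganglia. In rodents, megakaryocytes also make neuropeptide Y and platelets carry it.

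The bases just upstream of the start site are shown for Npy, whose level separated the groups, and for 3 noradrenergic genes whose levels did not. The motifs searched are those of cyclic AMP and immediate early signalling and of the basal promoter. Of the 7 genes, 6 matched an entry of the RefSeq promoter table (build GRCr8), and the one not matched was Slc6a2. Each line gives the 250 bases before the start site, 5' to 3' on the gene's own strand. Capitals mark matches on either strand to 4 motifs: the cyclic AMP response element (CRE) TGACGTCA, its core TGACG, the AP-1 site TGANTCA and the TATA box TATAAA. A full CRE holds overlapping cores.
Npy: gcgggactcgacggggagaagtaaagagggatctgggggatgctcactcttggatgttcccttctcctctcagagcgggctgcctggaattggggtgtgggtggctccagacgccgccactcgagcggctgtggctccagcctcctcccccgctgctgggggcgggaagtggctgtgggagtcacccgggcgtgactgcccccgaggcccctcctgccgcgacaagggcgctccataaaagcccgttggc
Th: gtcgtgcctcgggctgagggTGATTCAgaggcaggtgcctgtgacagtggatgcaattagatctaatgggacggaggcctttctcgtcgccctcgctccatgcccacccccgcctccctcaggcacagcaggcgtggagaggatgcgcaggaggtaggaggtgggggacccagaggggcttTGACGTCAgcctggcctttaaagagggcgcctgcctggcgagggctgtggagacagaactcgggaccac
Dbh: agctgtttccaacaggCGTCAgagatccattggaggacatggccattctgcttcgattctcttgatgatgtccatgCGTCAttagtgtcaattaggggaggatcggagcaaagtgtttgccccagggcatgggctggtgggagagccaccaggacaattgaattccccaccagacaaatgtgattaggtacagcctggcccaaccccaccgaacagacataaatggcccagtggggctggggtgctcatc
Slc18a2: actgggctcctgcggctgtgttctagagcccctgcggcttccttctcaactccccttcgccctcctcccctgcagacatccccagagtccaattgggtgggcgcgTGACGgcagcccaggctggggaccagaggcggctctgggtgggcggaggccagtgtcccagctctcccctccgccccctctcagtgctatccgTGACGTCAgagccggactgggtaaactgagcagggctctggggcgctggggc
The Npy window, on the plus strand at chr4:80211861-80212110, held none of the 4 motifs in these letters. The Th window, on the minus strand at chr1:207508219-207508468, held a CRE 69 to 62 bases upstream and an AP-1 site 230 to 224 bases upstream. The Slc18a2 window, on the plus strand at chr1:268399771-268400020, held a CRE 52 to 45 bases upstream and a separate core 145 to 141 bases upstream. The Dbh window, on the plus strand at chr3:30886078-30886327, held 2 cores on its reverse strand, 234 to 230 and 174 to 170 bases upstream. Among 33469 windows of the same length, 1.59% held a CRE, 18.2% a core, 6.34% an AP-1 site and 12.9% a TATA box. Of the windows not printed, the 3 of Ddc held an AP-1 site and a TATA box in 1 and none of the motifs in 2. That of Npy1r held 1 core. Npy was thus the only gene of the 6 with no match in any window. By the shares above each motif is absent from most windows, so nothing is read from this. A match describes the letters and not a used site.

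Npy was far lower in every perfused group than in non-perfused hearts of the same diet. Levels are log2 values relative to the array's own 75th percentile, so that 0 is the intensity of that percentile. In chow non-perfused hearts the 5 arrays (replicates 1 to 5) read -0.26, -0.32, 0.04, 0.10 and -0.64, a mean of -0.22 ± 0.30 (SD, n = 5). Sucrose non-perfused hearts read -1.19, 0.25, -0.33, 0.68 and -0.46, with a mean of -0.21 ± 0.71 (SD, n = 5). Both diets thus started from nearly the same mean, with a wider spread after sucrose. Chow hearts perfused with mannitol read -4.73, -4.80, -2.61, -5.09 and -4.73 (mean -4.39 ± 1.01, SD, n = 5). Chow hearts perfused with glucose read -4.50, -4.89, -4.85, -3.18 and -4.57 (mean -4.40 ± 0.70, SD, n = 5). In each of these groups 1 heart stood above the other 4, mannitol replicate 3 and glucose replicate 4, and both were still below every non-perfused heart. Sucrose hearts perfused with mannitol read -5.06, -4.81, -4.63, -4.82 and -4.85 (mean -4.83 ± 0.15, SD, n = 5). Sucrose hearts perfused with glucose read -4.20, -5.91, -4.97, -4.63 and -4.03 (mean -4.75 ± 0.75, SD, n = 5). The mannitol arrays of the sucrose diet lay closest together of the 6 groups.

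**Figure D1:**
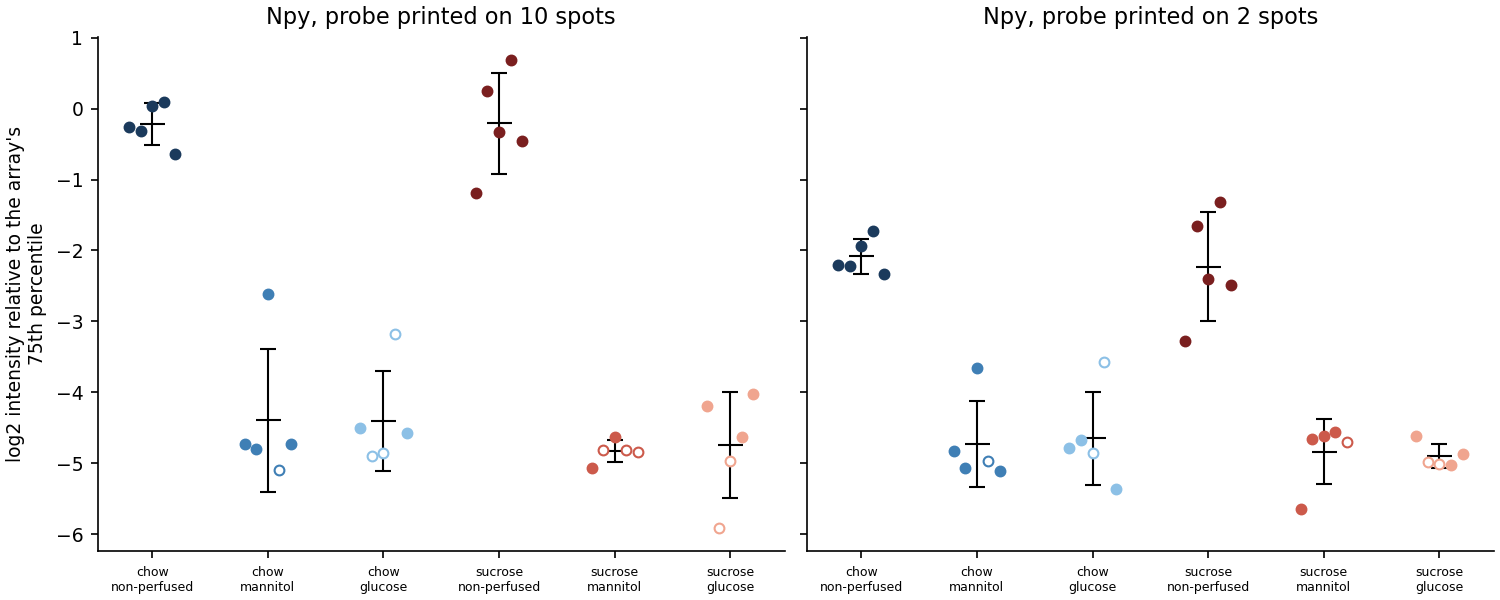
Npy level on each of the 30 arrays by group (log2, 0 is the array's 75th percentile), for the brightest probe (left) and the second probe (right), with group mean and SD, n = 5 arrays a group, and open symbols where the probe was not well above background. On the left all 10 non-perfused arrays lie at -1.19 or higher and all 20 perfused arrays at -2.61 or lower.

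The differences between group means were -4.18 for mannitol and -4.18 for glucose in chow hearts, and -4.63 for mannitol and -4.54 for glucose in sucrose hearts, each with a standard error of 0.41. On the linear scale these are 18.1-, 18.2-, 24.7- and 23.3-fold lower levels. Perfused and non-perfused arrays did not overlap, and the smallest gaps between them were 1.97, 2.54, 3.44 and 2.84 in the same order. Each pair of perfusion comparisons of a diet shares its non-perfused arrays. Among 18333 genes ordered by their difference, Npy was the 10th from the lowest with chow mannitol and the 9th in each of the other perfusion comparisons. Over all genes, limma with Benjamini-Hochberg adjustment called 670 genes lower in chow hearts with mannitol (3.65%) and 740 with glucose (4.04%). In sucrose hearts it called 1040 lower with mannitol (5.67%) and 576 with glucose (3.14%). The shares called higher were 4.83%, 5.47%, 5.53% and 5.54% in the same order. Perfused arrays lay below all non-perfused arrays for 4.51%, 4.26%, 4.87% and 3.39% of all genes. These perfusion contrasts chose Npy, so nothing is read from where it lies in them.

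Part of the perfused Npy readings were near the array's background. The probe was well above background on 5 of 5 arrays in both non-perfused groups, and on 4 and 2 of 5 chow arrays with mannitol and with glucose, and on 2 and 3 of 5 sucrose arrays. The size of the fall therefore moves with how background is treated. With normexp background correction the differences were -2.72, -2.77, -2.94 and -2.87, and with the mean of the gene's probes -3.41, -3.37, -3.62 and -3.61, in the order above. The second Npy probe had means of -2.09 ± 0.25 (chow) and -2.23 ± 0.77 (sucrose) in non-perfused hearts (SD, n = 5). In perfused hearts its means were -4.72 ± 0.61 and -4.65 ± 0.65 in chow hearts (mannitol, then glucose) and -4.84 ± 0.46 and -4.90 ± 0.17 in sucrose hearts (SD, n = 5). Both probes were thus lower in all 4 perfused groups.

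The order of the groups was also compared within slides. Within the 4 slides that carry all groups, the Npy difference ran in chow hearts from -4.90 to -2.16 with mannitol and from -4.89 to -3.28 with glucose. In sucrose hearts it ran from -5.49 to -3.81 with mannitol and from -6.16 to -3.29 with glucose. Chow mannitol and non-perfused arrays all occupied row 1 of their slides, and there Npy was lower by the -4.18 given above. Glucose arrays occupied row 2, where row and perfusion with glucose cannot be told apart. Of the sucrose mannitol arrays 4 of 5 were also in row 2, so that perfusion with mannitol after sucrose, and diet with mannitol, can hardly be told apart from row. Hearts of all groups were cooled. In perfused hearts buffer also took the place of blood, which cannot be told apart from perfusion itself. In whole tissue, fewer cells of a type and less RNA per cell cannot be told apart either.

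The enzymes that make noradrenaline did not follow Npy. Th encodes tyrosine hydroxylase, the rate-limiting step. It read 0.42, 1.28, 1.56, 1.37 and 0.88 in chow non-perfused hearts (mean 1.10 ± 0.46, SD, n = 5). In chow mannitol hearts Th read 1.40, 1.14, 0.74, 1.44 and 1.22, a mean of 1.19 ± 0.28 (SD, n = 5). These arrays lay in one common range, and chow glucose hearts overlapped both, at 0.60, 1.31, 1.34, 1.25 and 0.66 (mean 1.03 ± 0.37, SD, n = 5). Sucrose hearts had Th means of 1.04 ± 0.26 without perfusion, 1.02 ± 0.30 with mannitol and 0.87 ± 0.26 with glucose (SD, n = 5). The perfusion differences of Th were 0.09, -0.07, -0.03 and -0.18, each with a standard error of 0.20. All 4 differences of Th were smaller than their standard error.

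Ddc encodes aromatic amino acid decarboxylase, which makes dopamine. Its 6 group means ran from 2.07 (chow mannitol) to 2.20 (sucrose non-perfused), a range of 0.14 against a pooled SD of 0.25 between arrays. The perfusion differences of Ddc were -0.04, 0.06, -0.09 and 0.00 (standard error 0.15). Dbh encodes dopamine beta-hydroxylase, which turns dopamine into noradrenaline inside the vesicle. Its group means ran from -1.73 (chow mannitol) to -1.52 (sucrose glucose), a range of 0.21 against a pooled SD of 0.30. The perfusion differences of Dbh were -0.02, 0.06, -0.13 and 0.07 (standard error 0.19). Neither enzyme gene separated perfused from non-perfused arrays, and neighbours in the order of their group means did not differ beyond their spread.

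The transporters also overlapped between perfused and non-perfused hearts. Slc6a2 encodes the noradrenaline transporter of the nerve ending, and its group means ran from -2.28 (sucrose glucose) to -1.86 (chow mannitol). Its perfusion differences were 0.25, 0.09, 0.09 and -0.14 (standard error 0.17). A second Slc6a2 probe was dimmer, with group means from -5.56 (sucrose glucose) to -4.91 (sucrose mannitol). That probe was well above background on at most 3 of 5 arrays of a group. Slc18a2 encodes the vesicular monoamine transporter that fills the vesicles. Chow hearts had Slc18a2 means of -2.33 ± 0.23 without perfusion, -2.27 ± 0.29 with mannitol and -2.16 ± 0.30 with glucose (SD, n = 5). Sucrose non-perfused hearts read -2.40, -1.94, -2.48, -2.15 and -2.66 (mean -2.33 ± 0.28, SD, n = 5). Sucrose mannitol hearts read -1.52, -1.97, -1.81, -1.83 and -2.05 (mean -1.84 ± 0.20, SD, n = 5), and sucrose glucose hearts -1.89, -1.88, -1.71, -1.90 and -2.10 (mean -1.90 ± 0.14, SD, n = 5). Most perfused sucrose arrays lay above most non-perfused ones, with overlap. The Slc18a2 differences were 0.07 and 0.17 in chow hearts and 0.49 and 0.43 in sucrose hearts (mannitol first, standard error 0.15). In sucrose hearts they were above 0 on each of 4 slides, from 0.11 to 0.72 with mannitol and from 0.06 to 0.76 with glucose. On these slides the perfused sucrose arrays were all in row 2 and the non-perfused ones in row 1. Row and perfusion thus cannot be told apart there, and the differences are a description without a test.

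**Figure D2:**
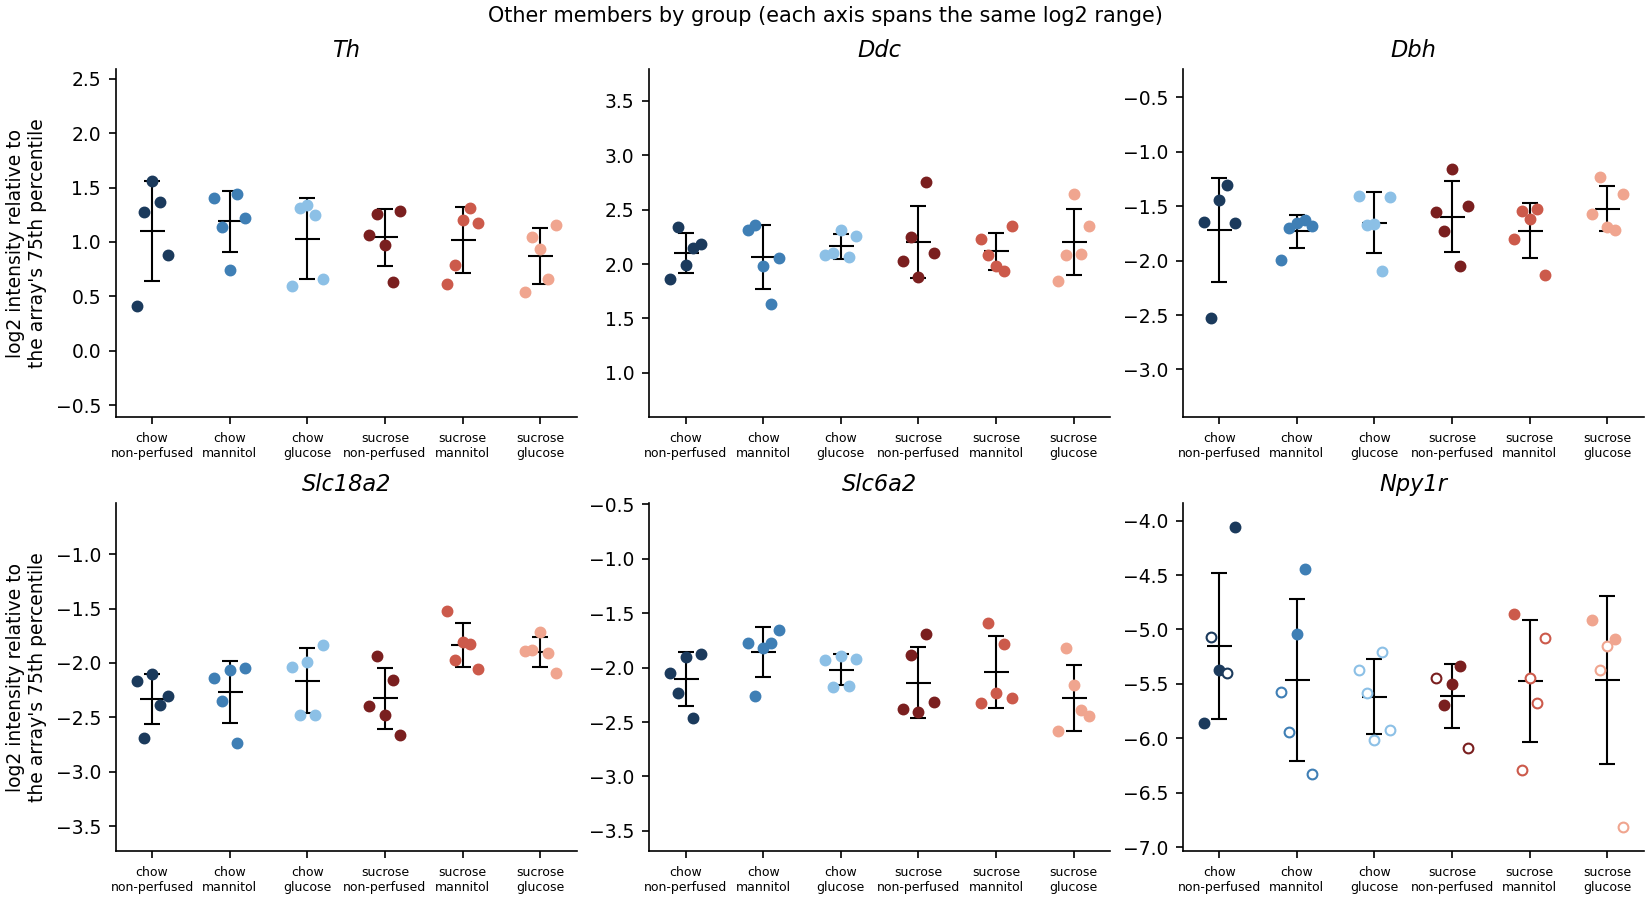
Levels of the other 6 genes on each array by group (log2, 0 is the array's 75th percentile), with group mean and SD, n = 5 arrays a group. Th, Ddc, Dbh, Slc6a2 and Slc18a2 overlap between perfused and non-perfused groups, and Npy1r lies near background throughout.

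Npy1r encodes the Y1 receptor, through which neuropeptide Y constricts vessels. Its probe was well above background on 11 of 30 arrays (3 and 3 of 5 in chow and sucrose non-perfused hearts, 2 and 1 with mannitol, 0 and 2 with glucose). It did not pass the filter, so it was the 1 gene of the 7 without a test, and 6 were tested. Its group means ran from -5.62 (chow glucose) to -5.15 (chow non-perfused), with a pooled SD of 0.59, so the level of this receptor was not resolved by these arrays. Over the 30 arrays the highest and lowest readings were 6.59 apart for Npy and 2.76 for Npy1r. The same distance was 1.14 for Th, 1.12 for Ddc, 1.37 for Dbh, 1.21 for Slc18a2 and 0.99 for Slc6a2, all on the log2 scale.

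**Figure D3:**
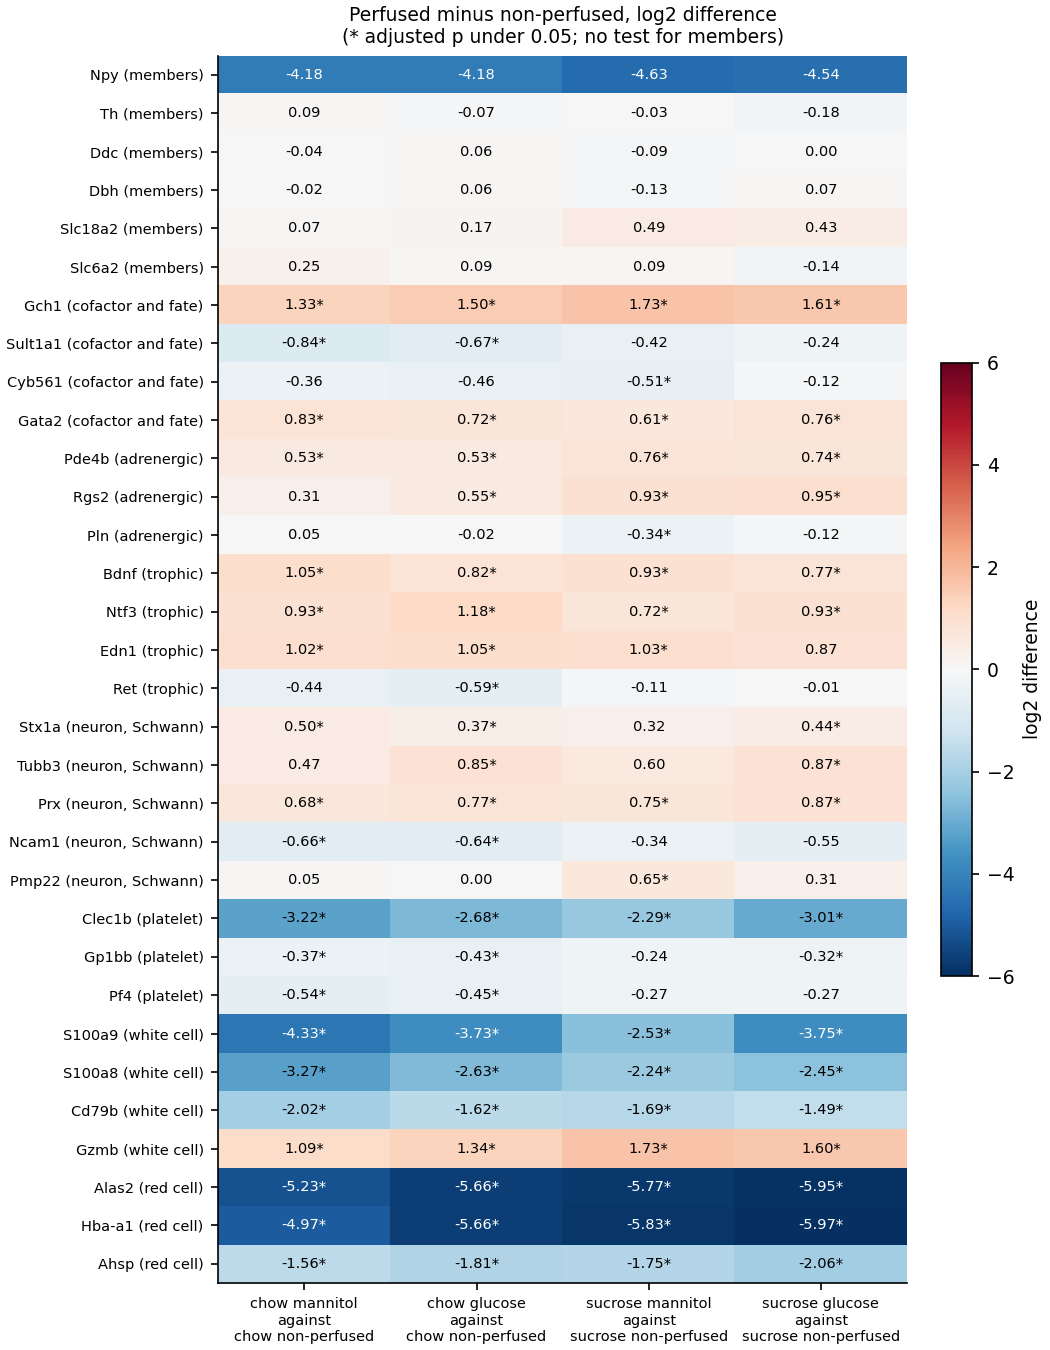
Difference in level between perfused and non-perfused hearts of the same diet (log2; colour and printed value) for the 6 tested genes and for genes named from the lists, with 1 column for each perfused group and asterisks on called list genes. The values of Clec1b, S100a8, S100a9 and Cd79b are measured ones with the perfused side partly or wholly near background. The printed values run from -4.18 to -4.63 for Npy and from -0.18 to 0.09 for Th, Ddc and Dbh.

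Whether glucose or diet changed the 7 genes is a separate question, which the choice of genes did not use. In 7 comparisons (glucose against mannitol in each diet, sucrose against chow in each of 3 states, and the diet difference in the perfusion change with each buffer) limma called none of the 6 tested genes after Benjamini-Hochberg adjustment over all 18333 genes. The background was as low. No gene was called with glucose against mannitol in chow hearts (0%), between diets in non-perfused (0%) or glucose hearts (0%), or in the change of perfusion between diets with mannitol (0%) or glucose (0%). At an unadjusted p under 0.05, limma counted 715, 612, 804, 1131 and 481 genes in these comparisons. Under the other settings their counts stayed at 0, except 1 call in the mannitol change without sucrose non-perfused replicate 1. With glucose against mannitol in sucrose hearts 1 gene was called (0.00545%; 928 at an unadjusted p under 0.05). It was Txnip, a glucose-responsive gene, at 1.26 higher (standard error 0.19, limma adjusted p = 0.00938). No gene was called there without any of 5 single arrays (sucrose mannitol replicate 5 and sucrose glucose replicates 1, 2, 4 and 5), with only the compared groups or with the authors' deposited values. Between diets with mannitol 1 unnamed probe was called (0.00545%; 1455 at an unadjusted p under 0.05). Both single calls were named after their values were seen.

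Perfused hearts with glucose had nearly the Npy level of those with mannitol. In chow hearts all mannitol arrays were in row 1 of their slides and all glucose arrays in row 2, so buffer and row cannot be told apart there. The difference was -0.01 in chow hearts (95% interval -0.84 to 0.83, limma adjusted p = 0.999) and 0.09 in sucrose hearts (-0.75 to 0.92, limma adjusted p = 0.997). Sucrose and chow hearts differed in Npy by 0.01 without perfusion (-0.83 to 0.84), by -0.44 with mannitol (-1.28 to 0.40) and by -0.35 with glucose (-1.18 to 0.49). The fall with perfusion was larger after sucrose by 0.45 with mannitol (interval of the difference -1.63 to 0.73) and by 0.36 with glucose (-1.54 to 0.83), and neither passed the test (limma adjusted p = 0.955 and 1). These intervals still hold changes of about the size of the spread between arrays.

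Of the other genes, Slc18a2 came closest to a call. With mannitol, sucrose hearts were 0.43 above chow hearts (95% interval 0.12 to 0.74, limma unadjusted p = 0.00917, adjusted p = 0.482), and the arrays overlapped only at their edges. In this comparison 4 of 5 sucrose arrays were in row 2 and all chow arrays in row 1, and the part of row was not tested. With glucose the difference was 0.26 (-0.05 to 0.58), and without perfusion it was 0.01 (-0.31 to 0.32). The mannitol perfusion change of Slc18a2 differed between diets by 0.42 (-0.02 to 0.87, limma adjusted p = 0.812). For Th, the diet differences were -0.06 (-0.47 to 0.36) without perfusion, -0.17 (-0.59 to 0.24) with mannitol and -0.16 (-0.58 to 0.25) with glucose. Intervals for Th, Ddc, Dbh and Slc6a2 held 0 in all 7 comparisons.

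**Figure D4:**
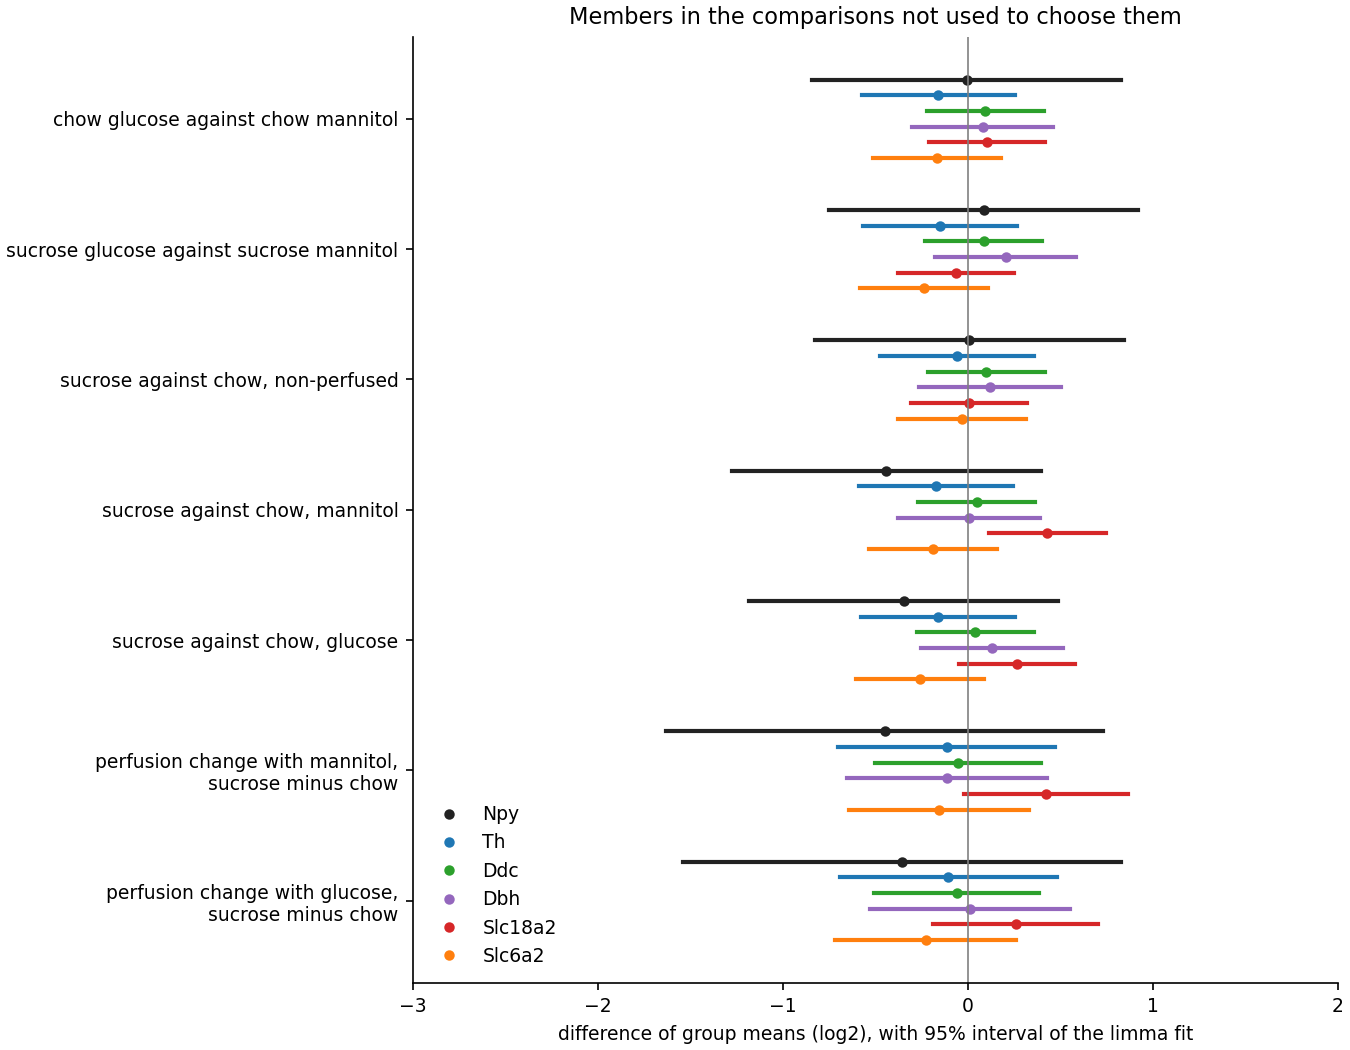
Differences in log2 level with 95% intervals for the 6 tested genes in the 7 comparisons of buffer and diet (limma, n = 5 arrays a group). All intervals hold 0 except Slc18a2 between diets with mannitol (0.12 to 0.74), which was not called after adjustment.

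The genes whose levels ran closest to Npy were genes of red blood cells. Likeness was the correlation of log2 levels over the 30 arrays, among 11303 other named genes, and is largely the step between perfused and non-perfused groups that both share. The highest were Alas2 (0.98), the enzyme that starts haem synthesis in red cell precursors, and Hba-a1 (0.979), an alpha globin. They were followed by Hbb-b1 (0.966), Hbb-bs (0.96), Hbb (0.956) and Hbe2 (0.955), all beta-type globins, Phf19 (0.939) and Car2 (0.935), a carbonic anhydrase of red cells. After each group's mean was removed, the closest were Zfp444 (0.751), Hba-a1 (0.732), Alas2 (0.726), Plscr1 (0.702) and Ybey (0.687). For Th and Dbh, the same correlation of deviations was -0.2 and -0.209.

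The 2 perfused hearts with the highest Npy also had the highest red cell sums of the 20. The summed linear level of 16 red cell genes was 603.4 to 928.3 in chow and 589.6 to 972 in sucrose non-perfused hearts, relative to the array's 75th percentile. It was 103.2 in chow mannitol replicate 3 and 8.394 to 12.46 in the other 4 hearts of that group. In chow glucose hearts it was 26.57 in replicate 4 and 7.909 to 8.848 in the other 4. In sucrose mannitol hearts it was 22.38 in replicate 2, whose Npy (-4.81) was near the group mean, and 6.161 to 10.28 in the other 4. Sucrose glucose hearts had sums of 7.182 to 12.52. In chow glucose replicate 4 neither Npy (-3.178) nor Alas2 (-4.715) was well above background, while Hba-a1 (3.954) was. On that array 56.33% of spots were well above background. Red cell RNA was thus lower in every perfused heart than in every non-perfused one, in the same direction as Npy, and its part in the fall of Npy was not tested.

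**Figure D5:**
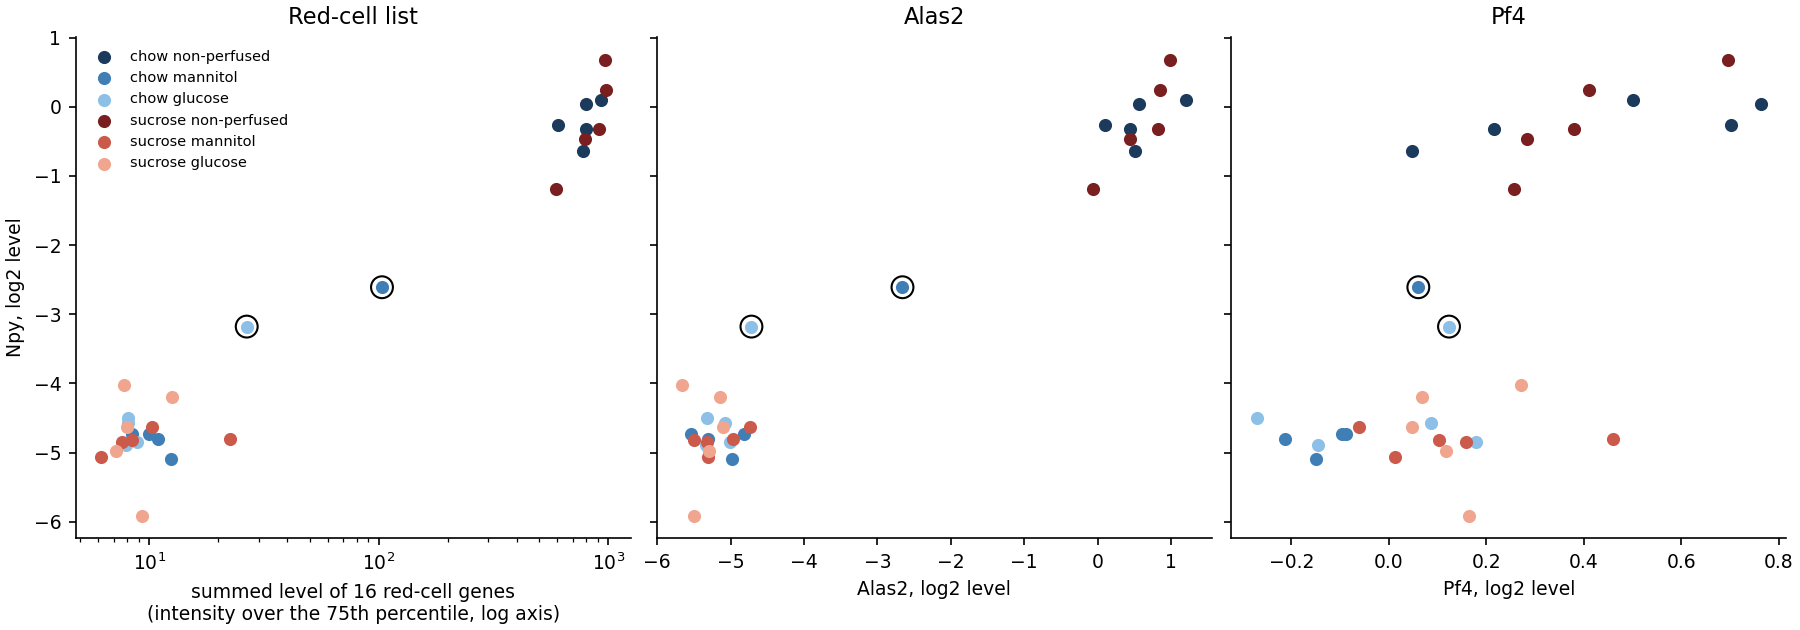
Npy level (log2, 0 is the array's 75th percentile) on the 30 arrays, coloured by group, against the summed linear level of 16 red cell genes (log axis, left) and the log2 levels of Alas2 (middle) and Pf4 (right). Rings mark chow mannitol replicate 3 (103.2 on the left axis) and chow glucose replicate 4 (26.57), which lie above the other hearts of their groups in Npy and in red cell sum. In chow glucose replicate 4 Npy and Alas2 were not well above background.

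Within groups the likeness of Npy to blood genes rested partly on those 2 hearts. Over the 20 perfused arrays, deviations of Npy and Alas2 from their group means had r = 0.718 and rho = 0.574, and over the 18 arrays without these 2 r = 0.317 and rho = 0.422. For Hba-a1, r was 0.764 over 20 arrays and 0.319 over 18. In the 10 non-perfused arrays r was 0.76 for Alas2 and 0.692 for Hba-a1. Clec1b, a receptor of platelets, had r = 0.899 and rho = 0.794 with Npy over those 10 arrays. Over the perfused arrays r was -0.0666, and Clec1b was above background on no array of 3 of the 4 perfused groups. In non-perfused hearts it was well above background on 4 of 5 chow and 3 of 5 sucrose arrays. The arrays where it was not (chow replicate 2, sucrose replicates 1 and 5) were those with noisy negative controls. Of the 10, sucrose replicate 1 had the lowest value of both Npy (-1.188) and Clec1b (-5.336). Clec1b passed the filter only through non-perfused hearts, so its r there lends no support. Pf4, a platelet chemokine, had r = 0.655 and Gp1bb, part of a platelet adhesion receptor, 0.527 over the 10 non-perfused arrays, where Th had -0.0192. Over the 20 perfused arrays r was 0.297 for Pf4, -0.285 for Gp1bb and -0.291 for Th. Over all 30 arrays r was 0.405 for Pf4, 0.148 for Clec1b and -0.0345 for Gp1bb. The other tested platelet genes, Gp5, Gp9, Treml1 and Nrgn, had -0.223, -0.202, 0.00821 and 0.086 over the same 30 arrays. Their values over the 10 non-perfused arrays are not given here. These points share arrays and the arrays' scaling, and are given without a test. Over all 30 arrays the median correlation of such deviations was 0.571 for the red cell list, 0.351 for Schwann cells, 0.251 for smooth muscle, 0.226 for neurotrophins, 0.21 for lymphocytes and 0.0422 for all genes. It was 0.00821 for the platelet list.

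Genes of the blood lists moved with perfusion as follows, with calls by limma after adjustment over all genes and values ordered as above (chow before sucrose, mannitol before glucose). Of 9 tested red cell genes, 8 fell in each comparison (3 with a filter on all 30 arrays). The list's median difference was -6.23, -5.70 or lower, -5.83 or lower and -6.68, with Hba-a3 at its bound in the comparisons where no perfused array was well above background. Over all genes the medians were -0.01, -0.05, -0.04 and -0.03, and 3.65%, 4.04%, 5.67% and 3.14% fell. Alas2 fell by 5.23, 5.66, 5.77 and 5.95 on the log2 scale (standard error 0.34). Of 7 platelet genes, 3, 3, 1 and 2 fell and none rose. Clec1b was at least 4.79-fold (chow mannitol), 3.11-fold (chow glucose) and 3.65-fold lower (sucrose glucose), since it was not well above background on any array of these groups. Gp1bb fell by 0.37, 0.43 and 0.32 in the same 3 comparisons, the last lost without any of 5 single arrays, and Pf4 fell by 0.54 and 0.45 in chow hearts, the latter lost without any of 3. The summed level of the platelet list was 3.065 to 4.049 (chow) and 3.084 to 3.889 (sucrose) without perfusion, and overlapped in part with chow glucose (2.474 to 3.369) and sucrose mannitol hearts (2.617 to 3.43). It was 2.616 to 3.016 with chow mannitol and 2.739 to 2.984 with sucrose glucose, below every non-perfused heart of the diet. Among 8 neutrophil genes 2, 3, 2 and 2 fell. With the authors' deposited values the platelet counts were 0 and the neutrophil counts 1 in each comparison, and with a filter on all 30 arrays the neutrophil counts were 0. Clec1b, S100a8, S100a9, the red cell gene Hba-a3 and the B cell gene Cd79b passed the filter only through non-perfused hearts, where they are high. Their fall is thus tied to the filter and lends these counts no support. The red cell medians of -6.23, -5.70 or lower and -6.68 were those of Hba-a3 itself. S100a8, a calcium-binding protein of neutrophils, was at least 4.7-, 3.05-, 2.3- and 2.82-fold lower. The part of platelets and white cells in the Npy result was not tested.

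Most genes that define a neuron by its structure were not measurable in this tissue, which bears on the name sympathetic neuron genes. Chga, Chgb, Snap25, Syt1, Nefm and Ina were well above background on 0 of 30 arrays, Phox2a and Elavl4 on 1 and Stmn2 on 3. Prph, Hand2, Gata2, Stx1a and Rab3a were well above background on 30 arrays, Uchl1 on 29 and Gap43 on 22. Several of the latter are also made by other cells. The 7 genes are therefore reported by name and not as a readout of nerve cells.

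Few genes of peptide handling and of the neuron lists were called with perfusion. Over all genes 4.83% to 5.54% rose and 3.14% to 5.67% fell. Of 8 tested genes of the neuropeptide Y family and its processing, 0 were called in each comparison (1 in 4, 5, 8 and 3 of 43 settings). Cpe, which trims peptide precursors, differed by -0.17, -0.13, -0.17 and -0.07, and Pam, which amidates peptides, by -0.46, -0.48, -0.17 and -0.37. The summed level of the list's 10 measured genes was nevertheless lower in most perfused groups. In chow hearts it was 17.57 to 19.09 without perfusion, 14.44 to 16.91 with mannitol and 13.1 to 17.4 with glucose. In sucrose hearts it was 16.88 to 18.28, 13.64 to 18.81 and 13.58 to 16.5, so that only sucrose mannitol overlapped. Of 7 granule genes 2 were tested (Pcsk1n and Scg5) and 0 called. Of 5 fate factors 1 was called in each comparison, the transcription factor Gata2, which rose by 0.83, 0.72, 0.61 and 0.76 (standard error 0.11). Of 11 genes of neuron structure, 1, 2, 0 and 2 rose and none fell. Stx1a, a syntaxin of vesicle release, rose by 0.50, 0.37 and 0.44 (not called with sucrose mannitol), and Tubb3, a neuronal tubulin, by 0.85 and 0.87 with glucose. The chow glucose calls of Stx1a and Tubb3 were each lost without single arrays (6 for Stx1a, 2 for Tubb3).

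The gene that starts synthesis of the cofactor of tyrosine hydroxylase rose in every perfused group, while the counts for adrenergic signalling were small. Gch1, the first enzyme of tetrahydrobiopterin synthesis, rose by 1.33, 1.50, 1.73 and 1.61 (standard error 0.16; limma adjusted p = 1.18e-06, 1.02e-07, 1.04e-08 and 3.44e-08). It was the 1 gene to rise of 12 tested in its list, where 1, 1, 1 and 0 fell: Sult1a1, a sulfotransferase, in chow hearts (-0.84 and -0.67) and Cyb561, a vesicle cytochrome, with sucrose mannitol (-0.51). The chow glucose call of Sult1a1 and that of Cyb561 were lost without any of 5 and of 6 single arrays. Pde4b, which breaks down cyclic AMP, rose by 0.53, 0.53, 0.76 and 0.74 (standard error 0.12). Rgs2, a brake on G protein signals, rose by 0.55 (chow glucose, lost without any of 4 single arrays), 0.93 and 0.95, with no call for chow mannitol. Of 18 tested genes of adrenergic signalling, 1, 2, 2 and 2 rose, and Pln, which slows calcium uptake, was the 1 that fell (-0.34, sucrose mannitol). Counts of 1 or 2 genes of such a list are read beside the 4.83% to 5.54% of all genes that rose, and stand for these genes and not for the list. The calls of Gch1 held under every setting that gave a value. Gch1 was well above background on 28 arrays, so a filter on all 30 arrays removed it.

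Growth factors for sympathetic neurons included a few that rose. Of 15 tested genes 3, 3, 3 and 2 rose and 0, 1, 0 and 0 fell, beside 4.83% to 5.54% of all genes that rose and 3.14% to 5.67% that fell. Ntf3, neurotrophin 3, rose by 0.93, 1.18, 0.72 and 0.93 (standard error 0.23), and Bdnf, brain-derived neurotrophic factor, by 1.05, 0.82, 0.93 and 0.77 (standard error 0.24). Edn1, an endothelial peptide, rose by 1.02, 1.05 and 1.03, with no call for sucrose glucose. Ret, a receptor for glial factors, fell by 0.59 with chow glucose. Calls lost without single arrays were those of Ntf3 with sucrose mannitol, Bdnf with glucose in both diets, Ret, and Edn1 in each of its comparisons. Ret lies outside the naming rule and was named after its value was seen.

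Nerve sheath cells and nearby tissues were checked in the same way. Their counts are read beside the 4.83% to 5.54% of all genes that rose and the 3.14% to 5.67% that fell. Of 14 Schwann cell genes 1, 1, 2 and 1 rose and 1, 1, 0 and 0 fell. Prx, a protein of myelinating sheaths, rose by 0.68, 0.77, 0.75 and 0.87, and Ncam1, an adhesion molecule, fell by 0.66 and 0.64 in chow hearts, both of the latter lost without single arrays. Of 10 parasympathetic and sensory genes 0 were called, among them Chrm2, the muscarinic receptor of the heart (-0.10, -0.18, -0.09 and -0.08). Of 12 atrial genes 2, 1, 3 and 1 fell, and Gja5, a connexin of atria and the conduction system, fell by 1.37, 1.35, 1.34 and 1.16 (standard error 0.22). The median difference of the atrial list was -0.58, -0.55, -0.30 and -0.25, against -0.01, -0.05, -0.04 and -0.03 over all genes. Whether the groups differed in atrial tissue was not tested. The other atrial calls were Dkk3, a Wnt inhibitor, with chow mannitol (-0.70), and Nr2f2 (-0.57) and the light chain Myl4 (-0.20) with sucrose mannitol, each lost without any of 5 to 7 single arrays. Of 11 ventricular muscle genes 0 were called, with Actc1, cardiac actin, at -0.01, 0.00, -0.25 and -0.15. Of 10 lymphocyte genes 2, 4, 3 and 3 rose and 1 fell in each comparison. The 1 that fell was Cd79b, which passed the filter only through non-perfused hearts. Gzmb, a protease of cytotoxic cells, rose by 1.09, 1.34, 1.73 and 1.60 (standard error 0.28), and Cd79b, part of the B cell receptor, was at least 2.25-, 1.46-, 1.44- and 1.76-fold lower. Of 10 smooth muscle genes 1 was called, Cnn1, a calponin, which rose by 1.38 with sucrose glucose (lost without any of 9 single arrays). With the authors' deposited values 60 of the 117 calls of list genes with perfusion were lost. Among them were all calls of Gata2, Pde4b, Bdnf, Ntf3, Edn1, Stx1a, Tubb3, Prx, Ncam1, Sult1a1, Cyb561, Gp1bb and Pf4, and 3 of the 4 of Gja5. No gene of these lists was called in the 7 comparisons of buffer and diet.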

How the data were processed

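The deposited files are one-colour Agilent tables of 30 arrays, 62976 spots each (58717 not controls). Per the file headers (Feature Extraction 11.0.1.1; the submitters' processing notes name 10.3), each spot's signal is an intensity corrected for background and for spatial trend on its own array. The authors' deposited series table holds log2 values, used only as an alternative. Its scaling between arrays is not given in the sources used here, and its array medians were 7.23 to 7.24.

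Spots of a probe were averaged without outlier flags, and the log2 value minus the array's 75th percentile was used. Of 30367 probes 18355 were named through the RefSeq gene table. Genes entered the test if 4 or more of the 5 arrays of some group were well above background. limma 3.58.1 (R 4.3.3) fitted 6 group means over 30 arrays, with Benjamini-Hochberg adjustment per comparison (threshold 0.05). Its code was tested on simulated data.

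The 7 genes and the 16 gene lists were chosen with earlier results of these data known, so the lists lend no independent support. A few genes of the lists are not reported here and were left out of their counts. Genes named from a list are its called members with the largest differences (up to 3 per comparison), or its highest members where none was called. Replicate numbers did not pair the arrays: deviations of same-numbered arrays had a mean correlation of -0.0366, against 0.204 for arrays of the same slide. p-values measure the spread between these samples.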

Additional observations from a re-analysis of the deposited data

Results flagged for a closer look

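In 6 of the 42 sets of 5 arrays (7 genes, 6 groups) 1 array stood apart from the other 4, by a gap to its neighbour that was a large share of the whole range. Chance marks about 1 in 20 such sets. Npy was high in chow mannitol replicate 3 (-2.609, gap 0.853 of the range) and in chow glucose replicate 4 (-3.178, 0.771; not well above background there). Both hearts also held the highest red cell sums of their groups. Dbh was low in chow non-perfused replicate 2 (-2.528, 0.714), an array with noisy negative controls, and in chow mannitol replicate 1 (-1.994, 0.797). Slc6a2 was low in chow mannitol replicate 2 (-2.257, 0.725). Npy1r was low in sucrose glucose replicate 5 (-6.815, 0.759), near background.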

How the results depend on the processing

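The direction of the Npy fall was the same in all 4 perfusion comparisons under every setting that gave a value, and its size moved with the background and the probe used. With normexp the Npy difference was -2.720 (mannitol) and -2.771 (glucose) in chow hearts and -2.940 and -2.866 in sucrose hearts. With the mean of the gene's probes it was -3.408, -3.373, -3.619 and -3.607. A filter on all 30 arrays removed Npy and gave no value. With the replicate block, which does not pair these arrays, the Npy differences were -4.18, -4.18, -4.63 and -4.54 (standard error 0.407), the same as without it. That block ended both single calls in buffer and diet, leaving 0.

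Without chow mannitol replicate 3 the chow mannitol difference was -4.62, and without chow glucose replicate 4 the chow glucose difference was -4.49. Without the 4 arrays of noisy negative controls the differences were -4.20 (mannitol) and -4.21 (glucose) in chow hearts and -5.03 and -4.95 in sucrose hearts. Over 1799 values of the member tests in buffer and diet 0 were called. In 91 of them the sign changed, between values that were not called. The smallest adjusted p was 0.219 (Slc18a2, slide as a random block). Of 117 calls of list genes with perfusion 87 were kept whichever single array was left out, and 52 under every setting that gave the gene a value. Settings that removed a gene from the test were not counted against its calls. Thus 31 of the 32 red cell calls are among the 52, although a filter on all arrays left 3 of 8 red cell falls in each comparison. Leaving out chow non-perfused replicate 5 ended the Edn1 calls in both chow comparisons and replicate 2 of that group ended Gzmb and Klrd1 with chow mannitol and Tubb3 with chow glucose. Chow mannitol replicate 3 ended Prx and Edn1 with chow mannitol, chow glucose replicate 4 ended Tubb3 and replicate 5 Cd79b with chow glucose, and sucrose non-perfused replicate 5 or sucrose mannitol replicate 1 ended Pmp22 with sucrose mannitol. Each further call that was lost could be ended by any of 3 to 9 single arrays. Calls over all genes ranged widely: in chow hearts 1556 with mannitol (360 with the authors' deposited values, 972 with normexp) and 1742 with glucose (418 and 1135). In sucrose hearts they were 2054 with mannitol (412 and 1029; 1088 with only the compared groups and 1270 without the noisy arrays) and 1592 with glucose (446 and 972). Signal over background limits Npy in perfused hearts and Npy1r everywhere.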
